A study of Bos taurus with 30 samples.

Results

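The 40 genes described here carry out or mark cell division, and they were read in RNA sequencing libraries of bovine endometrial cells. They were listed by name as genes of the cell cycle and proliferation, by a rule that uses no measured value, and all 40 were found once each among the 27607 genes counted. The cells were primary epithelial and stromal cells from uteri of nonpregnant cows early in the luteal phase, grown in culture and then seeded on either side of a porous membrane in a microfluidic device, the epithelial cells in the upper chamber and the stromal cells in the lower one. Medium was flowed for 72 h in both experiments. In the glucose experiment the medium held 5 or 50 mM glucose, and in the insulin experiment it held 5 mM glucose with vehicle (acetic acid in phosphate-buffered saline), 1 ng/mL or 10 ng/mL insulin. Each cell type and dose had 3 replicates, which gave 12 glucose and 18 insulin libraries. The stromal cells were a stromal-enriched fraction, not a line, and the labels do not say which replicates came from which animals, so that p-values measure the spread between these samples.

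A cell enters division when D-type cyclins and their kinases inactivate the retinoblastoma protein and free E2F factors, which switch on cyclin E and the genes of DNA replication. Inhibitors such as p21, p27 and p18, encoded by CDKN1A, CDKN1B and CDKN2C, hold these kinases back. The MCM helicase, the sliding clamp PCNA and the enzymes that make deoxynucleotides then serve S phase, and cyclins A and B with CDK1 drive the cell into mitosis, where checkpoint proteins, kinases and spindle motors separate the chromosomes. In the endometrium, epithelial and stromal cells divide at different points of the estrous cycle under estrogen and progesterone, and insulin is a known growth signal for cultured cells.

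The total count of a library was 13493503 to 16647701 in the glucose experiment and 8826470 to 13214728 in the insulin experiment, so that a count of 0 would allow up to 0.18 to 0.34 CPM (counts scaled to the size of the library) for counting error only. Levels below are TMM-normalised CPM, given for replicates 1, 2 and 3 in that order, and since they are not divided by gene length they are compared between libraries and not between genes. The lowest count of any member was 8, and all 40 passed the filter on low counts in every comparison. The keratin KRT18 was at 390.4 to 1870.0 CPM in epithelial and 0 to 362 in stromal libraries, and vimentin (VIM) at 338 to 1062 and 1497 to 4345. Over 20 epithelial markers the summed level was 7930.0 to 17620.0 CPM in epithelial and 22.8 to 5556 in stromal libraries, and over 20 stromal markers it was 1327 to 7376 and 22660.0 to 98030.0. Leukocyte markers (6 of 10 listed) summed to 157 to 442 CPM in epithelial and 4.83 to 176 in stromal libraries, and endothelial markers (9 of 10) to 17.5 to 87.4 and 5.07 to 22.02. A pair of libraries stood apart. Replicate 3 of the stromal cells at 50 mM glucose held epithelial markers at a median of 63.5% of their level in epithelial libraries and stromal markers at 41.5% of their stromal level, and the other stromal libraries at 50 mM held epithelial markers at 5.73% and 16.7%. The epithelial library of replicate 2 at 5 mM glucose had the highest epithelial marker sum and, among the members, CCND1 at 942 CPM against 320.0 and 142 in the other replicates of its group.

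Across the 30 libraries, the members varied mainly with the replicate number of a cell type and little with the dose of glucose or insulin. In epithelial cells of the insulin experiment, replicate 3 had the highest mean over the doses for 34 of the 40 members, among them all 10 DNA replication genes and all 22 genes of the groups that act from S phase to cytokinesis and the proliferation markers. In stromal cells of the same experiment, replicate 1 was highest for 32 members and replicate 2 lowest for 34. The order of the replicates thus differed between the cell types of the same experiment. With glucose, replicate 3 was highest for 27 members in epithelial cells, where replicate 2 was lowest for 29, and in stromal cells replicate 1 was lowest for 35. No share over all genes is given beside these counts of highest and lowest replicates, so they are not read as particular to the members. In these bulk samples fewer dividing cells and less of an mRNA per cell cannot be told apart.

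**Figure D1:**
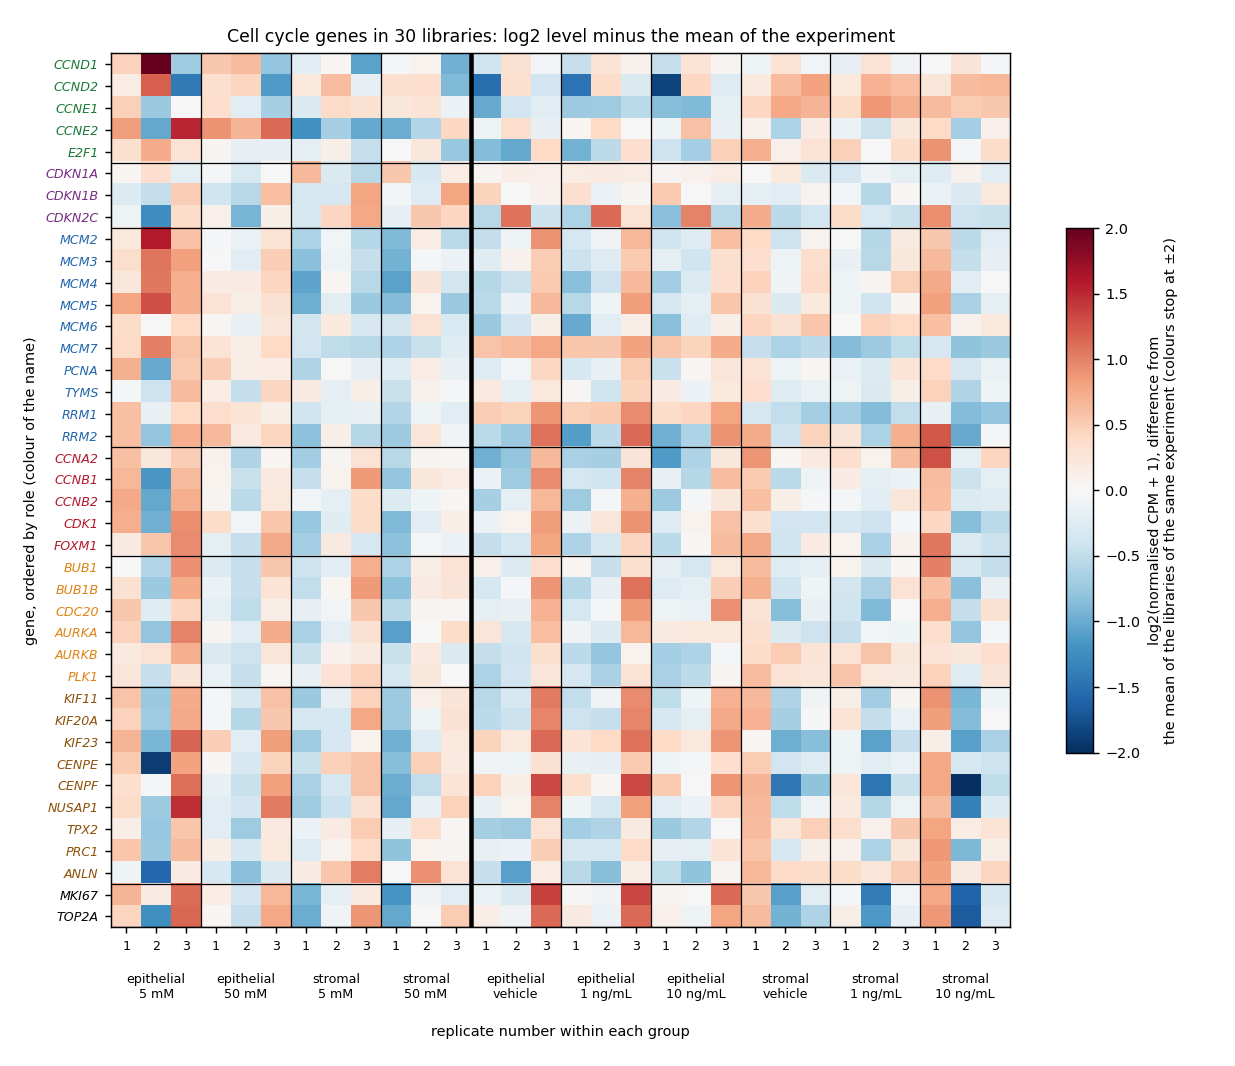
Heat map of the 40 members (rows, ordered by role) in the 30 libraries (columns, 3 replicates a group), where the colour is log2(normalised CPM + 1) minus the mean of the gene over the libraries of the same experiment, from blue (lower) to red (higher). Columns of replicate 3 of the epithelial insulin groups are red for most mitotic genes at every dose, as are those of replicate 1 of the stromal cells with vehicle and with 10 ng/mL.

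MKI67, which encodes the nuclear protein Ki-67 found in cycling cells, shows this order. In epithelial cells of the insulin experiment its level was 35.1, 31.5 and 101 CPM with vehicle, 39.4, 36.9 and 99.2 with 1 ng/mL and 40.1, 39.1 and 86.2 with 10 ng/mL insulin. In stromal cells it was 56.5, 17.8 and 32.98 with vehicle, 37.45, 14.03 and 37.03 with 1 ng/mL and 66.7, 12.02 and 30.9 with 10 ng/mL. Replicate 3 was the highest epithelial library at every dose and replicate 2 the lowest stromal one, and the 3 doses overlapped in both cell types. The mean of the highest replicate was 2.665 times that of the lowest in epithelial and 3.66 times in stromal cells, against 1.06 and 1.24 times between the highest and lowest dose. In the glucose experiment MKI67 was at 218, 153 and 296 CPM at 5 mM and 150.0, 104 and 216 at 50 mM in epithelial cells, and at 71.7, 118 and 154 CPM at 5 mM and 59.3, 129 and 116 at 50 mM in stromal cells. Each epithelial replicate was lower at 50 mM than its own number at 5 mM, while the 2 groups overlapped.

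TOP2A, the topoisomerase that untangles DNA before chromosomes part, was ordered alike. Its epithelial levels were 28.1, 24.2 and 57.2 CPM with vehicle, 29.2, 23.5 and 57.1 with 1 ng/mL and 27.6, 23.6 and 44.8 with 10 ng/mL insulin, and its stromal levels were 40.4, 12.8 and 16.2 CPM with vehicle, 27.7, 10.9 and 22.7 with 1 ng/mL and 47.2, 7.41 and 21.3 with 10 ng/mL. Under glucose, it was at 94.6, 29.4 and 156.5 CPM at 5 mM and 72.2, 50.6 and 119.8 at 50 mM in epithelial cells, and at 34.6, 66.8 and 130.5 CPM at 5 mM and 33.96, 69.8 and 99.7 at 50 mM in stromal cells. Replicate 3 was the highest in the epithelial cells of both experiments and in the stromal cells of the glucose experiment, and the doses overlapped throughout.

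Put as shares of the variance of log2(normalised CPM + 1), the replicate number took a median of 92.7% over the members in epithelial cells of the insulin experiment and the dose 1.49%, beside 73.1% and 6.09% over all protein-coding genes tested. In stromal cells of that experiment the medians were 66.6% and 3.275%, beside 55.6% and 9.69%. They were 77.3% and 3.85% in epithelial and 88.96% and 3.53% in stromal cells of the glucose experiment, beside 57.1% and 12.1% in epithelial and 63.4% and 10.2% in stromal cells over all protein-coding genes tested. Among the roles, the DNA replication genes of epithelial cells in the glucose experiment had the closest medians, 41.75% for the replicate and 33.7% for the dose. The replicate share was above the dose share for 5 of these 10 genes and for 31 of the 40 members there. Members of other roles with a larger dose share included E2F1, at 8.83% for the replicate and 73.95% for the dose, and CCNA2, at 35.9% and 59.3%. The replicate number also holds whatever separated the cultures, devices and library preparations of that number, and these cannot be told apart.

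**Figure D2:**
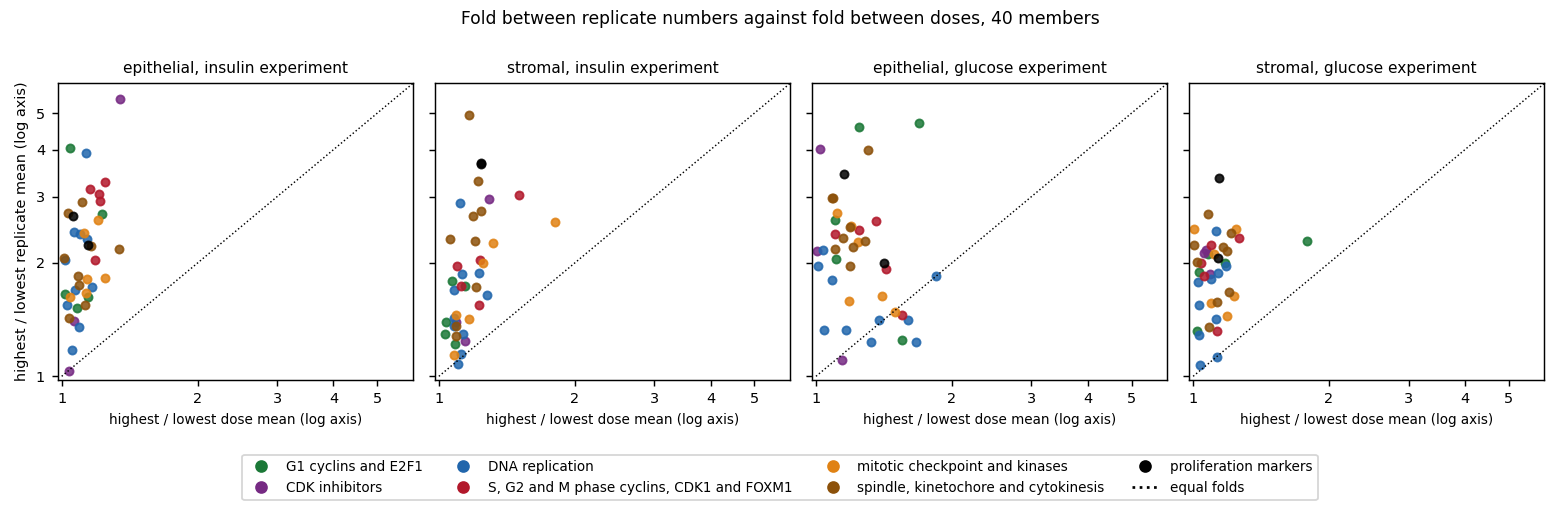
Each point is 1 member: the fold between the highest and lowest mean of the replicate numbers (vertical, log axis) against the fold between the highest and lowest dose mean (horizontal, log axis), for each cell type and experiment, coloured by role, with 3 doses in the insulin and 2 in the glucose experiment. Nearly all points lie above the dotted line of equal folds, with the epithelial cells of the glucose experiment as the exception. There several DNA replication genes lie on or below it, as do E2F1, CCNA2 and CDKN1A.

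Epithelial and stromal cells were compared at each dose with edgeR's quasi-likelihood test and Benjamini-Hochberg adjustment over all genes tested, and a gene was called at an adjusted p under 0.05 with a log2 fold change beyond 0.1. With vehicle, 3 members were higher and 5 lower in epithelial cells, where 28.2% of all protein-coding genes were called higher and 27.8% lower. With 1 ng/mL insulin the counts were 5 and 7 of 40, beside 29.9% and 29.5% of all genes, and with 10 ng/mL they were 3 and 4, beside 27.3% and 27.6%. At 5 mM glucose 4 members were higher and 0 lower, beside 10.8% and 10.7%, and at 50 mM 2 were higher and 0 lower, beside 6.57% and 11.0%. Read against these shares of 40 genes, the members' counts were below the background in the 3 insulin comparisons and near or below it in the glucose comparisons, with no test of the difference. Of members lower in epithelial cells at 5 and 50 mM glucose, 0 and 1 had an unadjusted p under 0.05, and DESeq2 called 0 and 1. Over the 5 comparisons 17 members were called at least once, 10 as higher and 7 as lower in epithelial cells, and no member was called in both directions. The share of all genes called at least once is not given, so this total is not read as a result about the members. These counts moved with the fit and the replicates. In 1 fit over all libraries of an experiment 18 members were called with vehicle, 20 with 1 ng/mL, 17 with 10 ng/mL and 12 at 5 mM glucose, beside 77.2%, 78.0%, 77.0% and 41.5% of all protein-coding genes. That fit took the replicate out separately within each cell type. The spread between replicates was thus not in its error for the cell types, and its higher counts are not read as support. With 1 replicate left out the counts ran from 5 to 10, 8 to 13 and 2 to 10 in the insulin comparisons and from 0 to 10 and 0 to 5 in those at 5 and 50 mM glucose. Without the replicate block the 1 ng/mL comparison called 7 members in place of 12 and the 50 mM comparison 0 in place of 2. Of these fits only that at 5 mM without replicate 2 has a share over all genes, given below. The movement of the counts is thus not read as particular to the members. The 5 calls lost at 1 ng/mL without the block were CCND2, MCM6, CCNA2, CENPF and MKI67. With vehicle CCND2 and TPX2 were lost, with 10 ng/mL KIF23, and at 5 mM glucose MCM2 and MCM4, while MCM7 was gained there.

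The median log2 fold change of the members (above 0, higher in epithelial cells) was -0.036 with vehicle, 0.091 with 1 ng/mL and -0.072 with 10 ng/mL insulin, and 0.40 at 5 mM and 0.20 at 50 mM glucose. Over all protein-coding genes it was -0.013 to 0.029. These medians varied with the replicates. With vehicle, 35 of the 40 members were lower in epithelial cells in the pair of replicate 1, 16 in that of replicate 2 and 8 in that of replicate 3. Of all 12876 protein-coding genes tested, 5937, 6001 and 6147 were lower in these pairs. At 5 mM glucose the counts were 4, 25 and 10, beside 6568, 6740 and 6348 of 13286 genes. Without replicate 3 the vehicle median was -0.36, and without replicate 1 it was 0.25. With 1 replicate left out the other medians ran from -0.15 to 0.24 with 1 ng/mL, -0.42 to 0.44 with 10 ng/mL, 0.095 to 0.76 at 5 mM and -0.025 to 0.53 at 50 mM. At 5 mM glucose without replicate 2, whose epithelial library stood apart, the median was 0.76 and 10 members were called, all higher in epithelial cells, beside 12.0% of all protein-coding genes. At 50 mM without replicate 3, whose stromal library held epithelial markers, the median was 0.12 and 2 members were called.

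**Figure D3:**
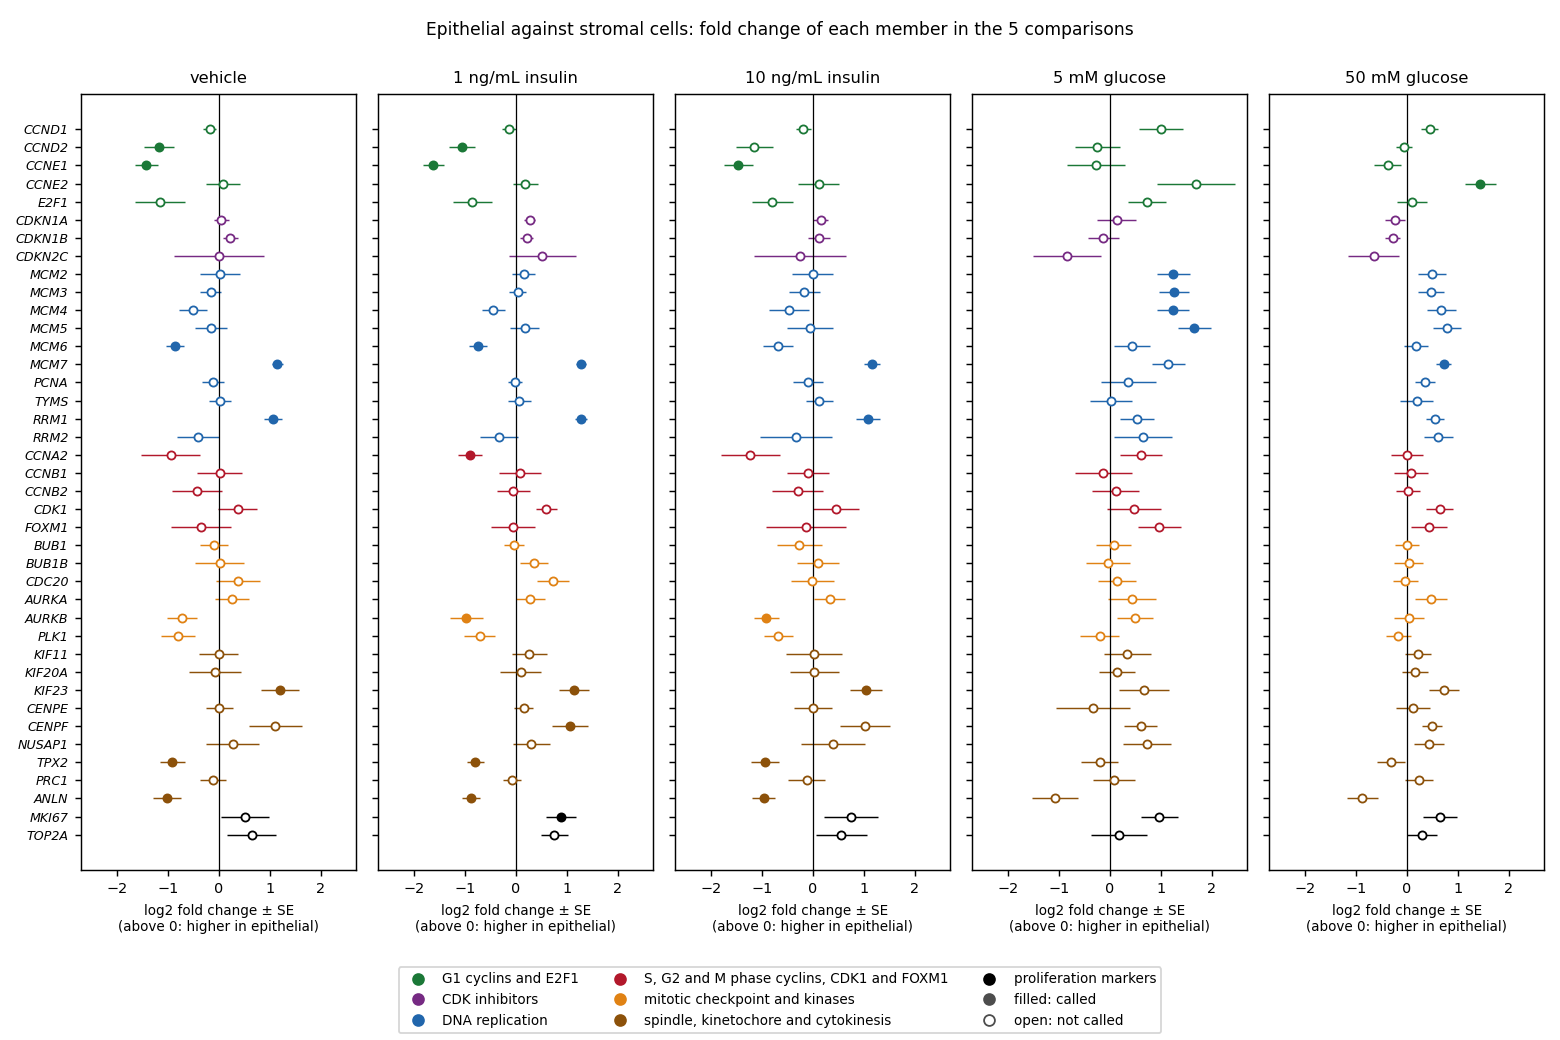
Log2 fold change of each member between epithelial and stromal cells (horizontal, ± SE, above 0 higher in epithelial cells) in the 5 comparisons, 3 libraries a cell type, coloured by role, with filled points for called members and open ones for the rest. The filled points are on both sides of 0 in the insulin experiment and only to the right of 0 in the glucose experiment.

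The G1 cyclins that were called in the insulin experiment were lower in epithelial cells. CCNE1, cyclin E1, was at 2.51, 4.38 and 5.03 CPM with vehicle, 3.25, 3.31 and 3.84 with 1 ng/mL and 2.897, 2.81 and 5.19 with 10 ng/mL insulin in epithelial cells, and at 8.32, 11.03 and 10.2 CPM with vehicle, 8.05, 11.9 and 10.5 with 1 ng/mL and 9.85, 9.03 and 9.23 with 10 ng/mL in stromal cells. Every stromal library of the insulin experiment was above every epithelial one. The log2 fold changes were -1.42 ± 0.22 (SE, adjusted p = 0.00626), -1.62 ± 0.21 (SE, adjusted p = 0.00164) and -1.46 ± 0.28 (SE, adjusted p = 0.012) by edgeR's quasi-likelihood test, which put the gene 2.68, 3.08 and 2.76 times higher in stromal cells. The 10 ng/mL call was lost without replicate 2, at -1.30. The cell types overlapped in the glucose experiment, at 7.25, 2.56 and 4.94 CPM at 5 mM and 6.46, 4.13 and 2.72 at 50 mM in epithelial cells and at 3.83, 6.74 and 6.35 CPM at 5 mM and 5.94, 6.14 and 4.48 at 50 mM in stromal cells, and the log2 fold changes were -0.27 ± 0.57 (SE, adjusted p = 0.783) and -0.38 ± 0.27 (SE, adjusted p = 0.366).

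CCND2, cyclin D2, was at 22.1, 80.8 and 49.3 CPM with vehicle, 22.6, 83.4 and 52.9 with 1 ng/mL and 17.2, 86.3 and 54 with 10 ng/mL insulin in epithelial cells, and at 74.6, 101 and 114 CPM with vehicle, 75.2, 106 and 99.2 with 1 ng/mL and 76.6, 101 and 103 with 10 ng/mL in stromal cells. Each stromal library was above the epithelial library of its own number, while the epithelial replicate means spread 4.05-fold and replicate 2 overlapped the stromal range. It was called with vehicle and with 1 ng/mL, at -1.16 ± 0.29 (SE, adjusted p = 0.0262) and -1.06 ± 0.26 (SE, adjusted p = 0.0169), and missed the threshold with 10 ng/mL at -1.15 ± 0.37 (SE, adjusted p = 0.0542), by edgeR's quasi-likelihood test. The vehicle call was lost without replicate 1 and without replicate 3, at -0.84 and -1.09, and with 10 ng/mL a call was gained without replicate 2, at -1.55. The glucose experiment gave CCND2 at 39.1, 81.2 and 12.6 CPM at 5 mM and 43.7, 47.6 and 15.5 at 50 mM in epithelial cells, and at 40.5, 54.5 and 31.2 CPM at 5 mM and 43.9, 44.9 and 18.45 at 50 mM in stromal cells, with the cell types overlapping.

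CCND1, cyclin D1, was not called in any comparison of cell types. Its epithelial levels were 229.8, 373 and 289.9 CPM with vehicle, 219, 367 and 320.3 with 1 ng/mL and 219, 366 and 313 with 10 ng/mL insulin, and its stromal levels were 284, 371 and 291 CPM with vehicle, 270.1, 369.6 and 288 with 1 ng/mL and 300.1, 364 and 294 with 10 ng/mL. Replicate 2 was the highest in all 6 groups. In the glucose experiment CCND1 was at 320.0, 942 and 142 CPM at 5 mM and 337, 359 and 135 at 50 mM in epithelial cells, and at 198, 238 and 109 CPM at 5 mM and 228, 242 and 118 at 50 mM in stromal cells. The log2 fold changes between cell types ran from -0.18 to 1.01, the highest at 5 mM where replicate 2 stood apart. CCNE2, cyclin E2, was the only G1 cyclin called as higher in epithelial cells. At 50 mM glucose it was at 14.8, 12.6 and 17.5 CPM in epithelial and 3.23, 4.66 and 10.3 in stromal cells, without overlap, at a log2 fold change of 1.45 ± 0.31 (SE, adjusted p = 0.0366) by edgeR's quasi-likelihood test. Without replicate 3, whose stromal library held epithelial markers and the highest stromal CCNE2, it was 1.80 and called, and without replicate 1 it was 1.11 and not called. The difference was not particular to 50 mM. At 5 mM CCNE2 was at 14.1, 3.18 and 23.4 CPM in epithelial and 2.65, 4.33 and 3.17 in stromal cells, at an uncalled 1.70. Its lowest value over the 5 comparisons was 0.087. E2F1, the factor that switches on S phase genes, was at 2.02, 1.71 and 6.29 CPM with vehicle, 1.87, 2.85 and 5.95 with 1 ng/mL and 3.12, 2.46 and 6.703 with 10 ng/mL insulin in epithelial cells, and at 8.16, 4.94 and 5.76 CPM with vehicle, 6.69, 4.48 and 6.13 with 1 ng/mL and 9.27, 4.43 and 6.09 with 10 ng/mL in stromal cells. Glucose libraries had it at 8.69, 12.01 and 8.49 CPM at 5 mM and 6.999, 5.92 and 5.87 at 50 mM in epithelial cells, and at 5.83, 7.38 and 4.599 CPM at 5 mM and 6.67, 8.06 and 3.57 at 50 mM in stromal cells. Its epithelial libraries of replicates 1 and 2 were below every stromal one in the insulin experiment. That of replicate 3 was above the stromal library of its own number with vehicle and 10 ng/mL and slightly below it with 1 ng/mL. E2F1 was not called in any comparison.

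None of the 3 inhibitors of cyclin-dependent kinases was called between the cell types. CDKN1A, a p53 target that encodes p21, was at 276, 289 and 284 CPM with vehicle, 293, 297 and 292 with 1 ng/mL and 275, 281.5 and 292 with 10 ng/mL insulin in epithelial cells, and at 266, 305 and 216 CPM with vehicle, 208, 251 and 229.8 with 1 ng/mL and 222, 281 and 229 with 10 ng/mL in stromal cells. Under glucose, it was at 313, 387 and 271 CPM at 5 mM and 299.7, 248 and 304 at 50 mM in epithelial cells, and at 483, 249 and 209 CPM at 5 mM and 443, 245 and 338 at 50 mM in stromal cells. The epithelial libraries of the insulin experiment lay within a narrow range, 275 to 297 CPM, while stromal replicate 1 at 5 and 50 mM glucose was the highest of its group. CDKN1B, which encodes p27, was at 42.8, 31.2 and 33.4 CPM with vehicle, 39.7, 28.9 and 32.4 with 1 ng/mL and 45.5, 31.02 and 27.6 with 10 ng/mL insulin in epithelial cells, and at 27.6, 26.4 and 32.9 CPM with vehicle, 30.1, 20.7 and 31.9 with 1 ng/mL and 28.3, 25.5 and 36.3 with 10 ng/mL in stromal cells. The glucose experiment gave it at 24.4, 21.2 and 42.6 CPM at 5 mM and 22.5, 20.05 and 46.1 at 50 mM in epithelial cells, and at 23.6, 23.5 and 52.3 CPM at 5 mM and 28.8, 24.9 and 52.5 at 50 mM in stromal cells, where replicate 3 was the highest in both cell types and at both doses. CDKN2C, which encodes p18, was at 1.29, 6.19 and 1.51 CPM with vehicle, 1.18, 6.43 and 3.11 with 1 ng/mL and 0.891, 5.74 and 1.32 with 10 ng/mL insulin in epithelial cells, and at 4.65, 1.33 and 1.601 CPM with vehicle, 3.35, 1.72 and 1.47 with 1 ng/mL and 5.43, 1.54 and 1.47 with 10 ng/mL in stromal cells. Replicate 2 was the highest epithelial library and replicate 1 the highest stromal one at every insulin dose. In the glucose experiment CDKN2C was at 2.88, 0.775 and 4.396 CPM at 5 mM and 3.5, 1.197 and 3.52 at 50 mM in epithelial cells, and at 2.36, 4.61 and 6.15 CPM at 5 mM and 2.71, 5.102 and 4.61 at 50 mM in stromal cells, at few counts and with overlap between the cell types.

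Among the DNA replication genes, MCM7 and RRM1 were called as higher in epithelial cells at each insulin dose. MCM7, a subunit of the MCM helicase, was at 61.9, 64.9 and 71.3 CPM with vehicle, 61.5, 60.7 and 73.4 with 1 ng/mL and 61.3, 57.1 and 69.95 with 10 ng/mL insulin in epithelial cells, and at 30.03, 26.4 and 28.6 CPM with vehicle, 22.4, 24.6 and 28.9 with 1 ng/mL and 32.7, 23.4 and 24.4 with 10 ng/mL in stromal cells. Glucose libraries had it at 75.7, 116 and 84.8 CPM at 5 mM and 69.9, 63.1 and 75.9 at 50 mM in epithelial cells, and at 44.02, 40.02 and 38.7 CPM at 5 mM and 37.3, 41.8 and 48.2 at 50 mM in stromal cells. The cell types did not overlap in either experiment. By edgeR's quasi-likelihood test the log2 fold changes were 1.15 ± 0.11 (SE, adjusted p = 0.00198), 1.28 ± 0.10 (SE, adjusted p = 0.000336) and 1.17 ± 0.15 (SE, adjusted p = 0.00438) in the insulin experiment, a level 2.21 to 2.43 times higher in epithelial cells, and 1.15 ± 0.32 (SE, adjusted p = 0.0525) and 0.72 ± 0.15 (SE, adjusted p = 0.0325) at 5 and 50 mM glucose. MCM7 was called in 4 of the 5 comparisons of cell types and no other member in more than 3. At 5 mM it was called without replicate 2, at 0.98. The 50 mM call was lost without replicate 1 and without replicate 2, at 0.65 and 0.78, and was 0.75 without replicate 3. RRM1, the large subunit of ribonucleotide reductase, was at 55.85, 54.1 and 73.4 CPM with vehicle, 55.1, 57.4 and 76.9 with 1 ng/mL and 51.04, 53.3 and 69.2 with 10 ng/mL insulin in epithelial cells, and at 30.9, 27.7 and 24.3 CPM with vehicle, 24.2, 21.2 and 27.8 with 1 ng/mL and 35.6, 21.2 and 22.7 with 10 ng/mL in stromal cells, without overlap, at log2 fold changes of 1.06 ± 0.18 (SE, adjusted p = 0.00837), 1.28 ± 0.11 (SE, adjusted p = 0.000475) and 1.08 ± 0.24 (SE, adjusted p = 0.018). With 10 ng/mL the RRM1 call was lost without replicate 2 and without replicate 3, at 1.03 and 0.82. Under glucose, RRM1 was at 81.8, 48.2 and 70.7 CPM at 5 mM and 68.8, 65.3 and 58.4 at 50 mM in epithelial cells, and at 40.4, 47.4 and 48.3 CPM at 5 mM and 35.4, 50.4 and 46.3 at 50 mM in stromal cells and was not called, at 0.53 ± 0.33 (SE, adjusted p = 0.339) and 0.56 ± 0.18 (SE, adjusted p = 0.0876).

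MCM7 was the only one of the 6 MCM subunits called as higher in epithelial cells of the insulin experiment. MCM6 was called as lower in epithelial cells with vehicle and with 1 ng/mL insulin, and it was at 20.9, 27.2 and 38.9 CPM with vehicle, 17.1, 30.3 and 39.4 with 1 ng/mL and 19.6, 30.1 and 38.8 with 10 ng/mL insulin in epithelial cells, and at 48.5, 44.2 and 53.04 CPM with vehicle, 35.4, 49.6 and 47.3 with 1 ng/mL and 54.6, 37.7 and 41.4 with 10 ng/mL in stromal cells. Its log2 fold changes were -0.86 ± 0.18 (SE, adjusted p = 0.0151) and -0.75 ± 0.18 (SE, adjusted p = 0.0153) by edgeR's quasi-likelihood test, and every stromal library with vehicle was above every epithelial one, while the cell types overlapped with 1 and with 10 ng/mL. The 1 ng/mL call was lost without replicate 1, at -0.57. MCM2, MCM3, MCM4 and MCM5 were called at 5 mM glucose only, as higher in epithelial cells. MCM5 was at 34.8, 49.7 and 33 CPM in epithelial and 9.51, 16.7 and 11.4 in stromal cells at 5 mM, a log2 fold change of 1.66 ± 0.32 (SE, adjusted p = 0.0174) or 3.15-fold. MCM2 was at 32.3, 84.9 and 42.3 in epithelial and 17.6, 26.6 and 18.4 in stromal cells, at 1.25 ± 0.33 (SE, adjusted p = 0.0448). MCM3 was at 31.9, 53.6 and 44.7 in epithelial and 13.5, 23.1 and 17.9 in stromal cells, at 1.26 ± 0.30 (SE, adjusted p = 0.0338). MCM4 was at 34.7, 62.2 and 49.1 in epithelial and 13.6, 30.1 and 19.7 in stromal cells, at 1.24 ± 0.30 (SE, adjusted p = 0.0359). The cell types did not overlap for any of these 4 subunits at 5 mM, and the epithelial library of replicate 2 was the highest for each. Without replicate 2 the 4 log2 fold changes were 1.72, 1.06, 1.30 and 1.35 and stayed called, whereas leaving out replicate 1 or replicate 3 left 0 members called in this comparison, with 6 and 1 at an unadjusted p under 0.05. At 50 mM glucose MCM5 was at 24.3, 21.5 and 24.6 in epithelial and 10.4, 20.9 and 11.4 in stromal cells and was not called, at 0.79 ± 0.28 (SE, adjusted p = 0.105).

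In the insulin experiment these 4 subunits were not called between the cell types. MCM2 was at 9.13, 12.3 and 25.1 CPM with vehicle, 10.04, 12.4 and 21.2 with 1 ng/mL and 9.69, 10.8 and 20.4 with 10 ng/mL insulin in epithelial cells, and at 17.6, 9.51 and 13.8 CPM with vehicle, 13.1, 8.44 and 14.9 with 1 ng/mL and 19.3, 8.76 and 11.1 with 10 ng/mL in stromal cells, with the highest epithelial level in replicate 3 at each dose. At 50 mM glucose MCM2 was at 27.3, 25.3 and 33.95 in epithelial and 14.5, 30.7 and 18.8 in stromal cells. PCNA, the sliding clamp of DNA polymerases, was at 22.55, 25.9 and 36.5 CPM with vehicle, 21.55, 24.4 and 38.9 with 1 ng/mL and 19.6, 27.7 and 32.3 with 10 ng/mL insulin in epithelial cells, and at 33.3, 25.2 and 27.7 CPM with vehicle, 24.7, 22.2 and 32.9 with 1 ng/mL and 35.6, 21.3 and 24.5 with 10 ng/mL in stromal cells. Under glucose, it was at 44.2, 12.6 and 38.7 CPM at 5 mM and 37.6, 29.1 and 29.6 at 50 mM in epithelial cells, and at 17.1, 26.7 and 23.6 CPM at 5 mM and 22.4, 29.4 and 23.8 at 50 mM in stromal cells, and the epithelial library of replicate 2 at 5 mM, the highest for MCM2, was the lowest of all 30 for PCNA. PCNA, TYMS (thymidylate synthase) and RRM2 (the small subunit of ribonucleotide reductase) were not called in any comparison of cell types.

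Of the cyclins of S, G2 and M phase, CDK1 and FOXM1, a single gene was called once. CCNA2, cyclin A2, was at 3.05, 3.03 and 6.59 CPM in epithelial and 7.06, 5.68 and 8.83 in stromal cells with 1 ng/mL insulin, at a log2 fold change of -0.90 ± 0.24 (SE, adjusted p = 0.0232) by edgeR's quasi-likelihood test, and epithelial replicate 3 overlapped the stromal range. It was not called by DESeq2, at -0.89, nor without replicate 1 or replicate 2. CDK1, the kinase that starts mitosis, was at 8.08, 9.29 and 16.5 CPM with vehicle, 8.07, 10.6 and 17.4 with 1 ng/mL and 7.24, 9.36 and 13.8 with 10 ng/mL insulin in epithelial cells, and at 11.3, 6.56 and 6.51 CPM with vehicle, 6.78, 6.37 and 8.58 with 1 ng/mL and 12.1, 4.43 and 5.79 with 10 ng/mL in stromal cells. The glucose experiment gave it at 28.1, 8.06 and 32.6 CPM at 5 mM and 21.8, 15.98 and 24.7 at 50 mM in epithelial cells, and at 9.37, 13.9 and 21.8 CPM at 5 mM and 8.58, 14.3 and 18.3 at 50 mM in stromal cells. The fitted difference was above 0 in all 5 comparisons, from 0.37 to 0.64, and was not called. CCNB1, cyclin B1, its partner, was at 5.17, 3.097 and 11.9 CPM with vehicle, 4.23, 4.04 and 12.3 with 1 ng/mL and 5.01, 3.51 and 9.25 with 10 ng/mL insulin in epithelial cells, and at 8.65, 3.61 and 5.23 CPM with vehicle, 6.51, 4.82 and 5.15 with 1 ng/mL and 9.27, 3.97 and 4.81 with 10 ng/mL in stromal cells. In the glucose experiment it was at 24.1, 6.05 and 23.6 CPM at 5 mM and 15.6, 10.6 and 17.01 at 50 mM in epithelial cells, and at 10.5, 15.5 and 27.4 CPM at 5 mM and 8.21, 17.6 and 16.4 at 50 mM in stromal cells. Its cell types overlapped in each comparison, with log2 fold changes from -0.12 to 0.089.

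The genes of the mitotic apparatus were called in both directions. Among checkpoint genes and kinases, AURKB, the kinase of the chromosomal passenger complex, was called as lower in epithelial cells with 1 and with 10 ng/mL insulin. It was at 3.84, 3.03 and 6.32 CPM in epithelial and 7.51, 9.299 and 7.11 in stromal cells with 1 ng/mL, and at 3.34, 3.51 and 5.85 in epithelial and 7.46, 7.14 and 7.76 in stromal cells with 10 ng/mL. The cell types did not overlap at either dose, and the log2 fold changes were -0.97 ± 0.33 (SE, adjusted p = 0.047) and -0.91 ± 0.25 (SE, adjusted p = 0.0338) by edgeR's quasi-likelihood test, neither of which was called by DESeq2. Both calls were lost without replicate 1, at -0.94 and -0.77, and without replicate 2, at -0.61 and -0.80, and with vehicle a call was gained without replicate 3, at -1.09. At 5 mM glucose its fitted difference was 0.50 ± 0.35 (SE) in the other direction, uncalled. BUB1, BUB1B, CDC20, AURKA and PLK1 were not called, and the fitted value of PLK1, a kinase of spindle assembly, was below 0 in all 5 comparisons, from -0.81 to -0.17.

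Among spindle, kinetochore and cytokinesis genes, ANLN and TPX2 were lower and KIF23 higher in epithelial cells of the insulin experiment at every dose. ANLN, anillin, a scaffold of the contractile ring, was at 46.4, 29.6 and 70.99 CPM with vehicle, 43.4, 35.1 and 69.9 with 1 ng/mL and 44.7, 36.2 and 66.5 with 10 ng/mL insulin in epithelial cells, and at 101, 83.3 and 82.9 CPM with vehicle, 82.7, 75.8 and 90.4 with 1 ng/mL and 113, 72.2 and 86.2 with 10 ng/mL in stromal cells. Every stromal library was above every epithelial one, at log2 fold changes of -1.02 ± 0.27 (SE, adjusted p = 0.0309), -0.88 ± 0.18 (SE, adjusted p = 0.00829) and -0.97 ± 0.22 (SE, adjusted p = 0.0193) by edgeR's quasi-likelihood test. Glucose libraries had ANLN at 113, 39.8 and 134 CPM at 5 mM and 95.9, 66.7 and 98.2 at 50 mM in epithelial cells, and at 135, 176 and 245 CPM at 5 mM and 119.8, 226 and 146 at 50 mM in stromal cells, each stromal library above the epithelial library of its own number, and was not called at -1.08 ± 0.45 (SE, adjusted p = 0.162) and -0.87 ± 0.31 (SE, adjusted p = 0.105). At 5 mM without replicate 2 it was -0.54. The ANLN calls with vehicle and with 10 ng/mL were lost without replicate 1, at -0.92 and -0.76, and without replicate 2, at -0.74 and -0.88, and that with 1 ng/mL without replicate 1, at -0.82. TPX2, which brings AURKA to the spindle, was at 21.4, 20.5 and 41.99 CPM with vehicle, 20.96, 22.2 and 38.99 with 1 ng/mL and 20.2, 22.6 and 34.4 with 10 ng/mL insulin in epithelial cells, and at 53.8, 40.9 and 48.1 CPM with vehicle, 44.2, 36.6 and 50.2 with 1 ng/mL and 59.8, 38.3 and 41.7 with 10 ng/mL in stromal cells, at -0.91 ± 0.25 (SE, adjusted p = 0.0331), -0.80 ± 0.17 (SE, adjusted p = 0.00988) and -0.93 ± 0.27 (SE, adjusted p = 0.0403), with epithelial replicate 3 inside the stromal range with vehicle and 1 ng/mL and below it with 10 ng/mL. Its calls with vehicle and with 10 ng/mL were lost without replicate 1, at -0.66 and -0.59, and without replicate 2, at -0.82 and -0.95.

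KIF23, a kinesin of cytokinesis, was at 15.9, 13.3 and 26.3 CPM with vehicle, 13.97, 15.3 and 25.4 with 1 ng/mL and 15.5, 13.5 and 21.9 with 10 ng/mL insulin in epithelial cells, and at 11.8, 5.325 and 5.87 CPM with vehicle, 10.7, 4.91 and 8.09 with 1 ng/mL and 12.5, 4.88 and 6.97 with 10 ng/mL in stromal cells, at 1.20 ± 0.37 (SE, adjusted p = 0.0456), 1.14 ± 0.30 (SE, adjusted p = 0.021) and 1.05 ± 0.31 (SE, adjusted p = 0.0427), or 2.07 to 2.304 times higher in epithelial cells. Every epithelial KIF23 level of the insulin experiment was above every stromal level of that experiment. The KIF23 calls were lost at all 3 doses without replicate 3, at 0.77, 0.88 and 0.75, and with vehicle and 10 ng/mL also without replicate 2, at 1.19 and 0.93. In the glucose comparisons KIF23 was called without replicate 2, at 1.29 at 5 mM and 1.07 at 50 mM. ANLN and KIF23 both act in cytokinesis, and their differences between the cell types had opposite signs in all 5 comparisons. CENPF, a kinetochore protein, was called with 1 ng/mL insulin only, at 44.1, 35.3 and 87.6 in epithelial and 40.9, 12.1 and 25.1 in stromal cells and 1.07 ± 0.35 (SE, adjusted p = 0.0443), with epithelial replicate 2 inside the stromal range, and its call was lost without replicate 2 and without replicate 3, at 0.90 and 0.68.

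MKI67 was above 0 in all 5 comparisons of cell types and called in 1. With 1 ng/mL insulin its log2 fold change was 0.88 ± 0.29 (SE, adjusted p = 0.0468), with vehicle 0.52 ± 0.48 (SE, adjusted p = 0.402) and with 10 ng/mL 0.75 ± 0.53 (SE, adjusted p = 0.287). At 5 and 50 mM glucose it was 0.97 ± 0.37 (SE, adjusted p = 0.127) and 0.65 ± 0.33 (SE, adjusted p = 0.221), all by edgeR's quasi-likelihood test. Every epithelial library at 5 mM was above the stromal library of its own number. The call with 1 ng/mL was lost without replicate 2 and without replicate 3, at 0.70 and 0.60, and with vehicle the value without replicate 3 was -0.030. MKI67 was called in the other 4 comparisons when 1 replicate was left out, without replicate 1 at 1.16 with vehicle and 1.51 with 10 ng/mL, and without replicate 2 at 1.29 at 5 mM and 1.12 at 50 mM. TOP2A was not called, at 0.18 to 0.75. Stromal markers in epithelial libraries were at a median of 1.68% to 13.5% of their stromal level, and the part of mixed cells in the differences between cell types was not tested.

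**Figure D4:**
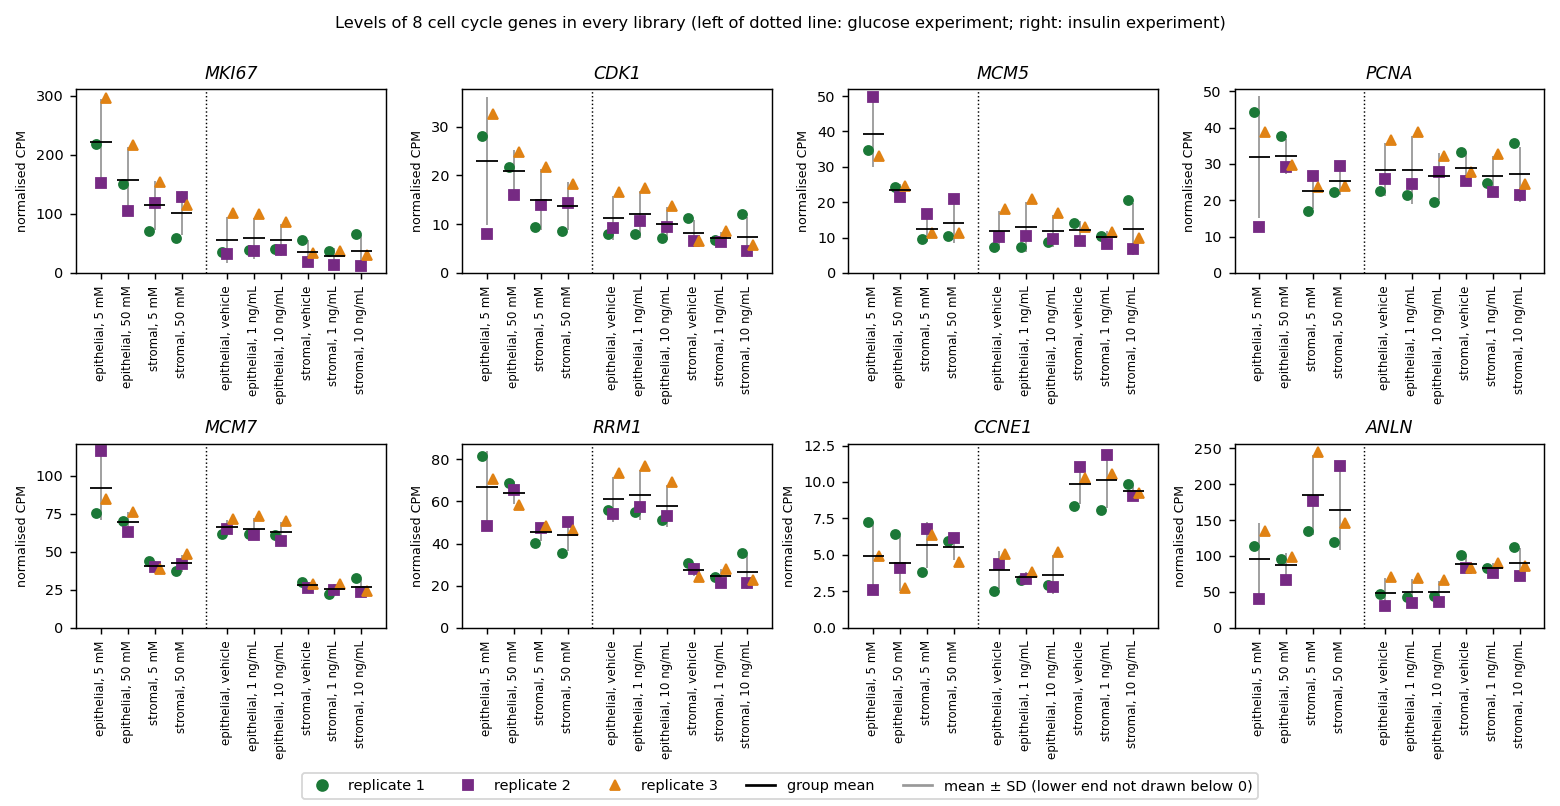
Normalised CPM (vertical, from 0) of MKI67, CDK1, MCM5, PCNA, MCM7, RRM1, CCNE1 and ANLN in every library by group, with replicate number as symbol, the group mean as a bar and the SD as a line (n = 3). For MCM7 every epithelial library is above every stromal one. CCNE1 and ANLN are higher in stromal cells of the insulin experiment, and for MKI67 the replicates of a group lie farther apart than the means of the insulin doses.

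Glucose was compared between 50 and 5 mM within each cell type, to ask whether a high concentration changed proliferation genes. No member was called. In epithelial cells 0 of 40 were called, beside 0.0% of all protein-coding genes, and 3 members had an unadjusted p under 0.05, beside 1.54%. In stromal cells 0 were called beside 0.0%, and 1 had an unadjusted p under 0.05, beside 4.96%. DESeq2 called 0 members in either cell type. The standard error of a member's log2 fold change had a median of 0.28 in epithelial and 0.15 in stromal cells. Changes of that size were not detectable with 3 replicates, and larger ones also went uncalled. The uncalled values ran from -0.76 to 0.48 in epithelial and from -0.31 to 0.70 in stromal cells. In direction, 32 of the 40 epithelial values were below 0, with a median of -0.19, where 49.5% of all protein-coding genes were below 0, and 27 of the stromal values were below 0, with a median of -0.058, where 54.0% of all were.

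The 3 members with the smallest p in epithelial cells were MCM5, MKI67 and CCNA2. MCM5 was at 34.8, 49.7 and 33 CPM at 5 mM and 24.3, 21.5 and 24.6 at 50 mM, and all 3 libraries at 50 mM were below all 3 at 5 mM. Its log2 fold change was -0.71 ± 0.26 (SE, unadjusted p = 0.0373, adjusted p = 0.804) by edgeR's quasi-likelihood test. MKI67, given above in each library, was lower at 50 mM in 3 of 3 pairs, at -0.51 ± 0.20 (SE, unadjusted p = 0.0455, adjusted p = 0.804). CCNA2 was at 15.3, 11.6 and 14.2 CPM at 5 mM and 10.4, 6.04 and 10.02 at 50 mM, without overlap, at -0.66 ± 0.26 (SE, unadjusted p = 0.046, adjusted p = 0.804). The replicates differed in direction. In the pairs of replicates 1 and 3, 34 and 37 of the 40 members were lower at 50 mM, at median log2 ratios of -0.35 and -0.33. In the pair of replicate 2, whose library at 5 mM stood apart, 19 were lower, at a median of 0.084. Of all 13055 protein-coding genes tested, 6171, 6500 and 6768 were lower in the pairs of replicates 1, 2 and 3. Over the 3 pairs, 14 members (35.0%) were lower in each, beside 15.2% of all protein-coding genes, and 0 were higher in each, beside 14.7%.

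Without replicate 2, 8 members were called as lower at 50 mM in epithelial cells, beside 1.01% of all protein-coding genes in that fit, and 28 had an unadjusted p under 0.05, beside 13.7%. MKI67 was at -0.50 ± 0.086 (SE, adjusted p = 0.00962 by edgeR's quasi-likelihood test, 2 pairs). Cyclins B1 and B2, CCNB1 and CCNB2, were at -0.55 and -0.64, MCM5 at -0.47, the checkpoint kinase gene BUB1B at -0.47, the kinetochore motor gene CENPE at -0.44, PRC1, which bundles midzone microtubules, at -0.43 and TOP2A at -0.39. CENPE shows what replicate 2 held, at 61.8, 10.7 and 75.3 CPM at 5 mM and 43.6, 34.1 and 58.1 at 50 mM, lower at 50 mM in the pairs of replicates 1 and 3 and higher in that of replicate 2. The 5 mM library of replicate 2 was high for MCM2, MCM5 and CCND1 and low for PCNA, CDK1, CCNB1 and CENPE. With replicate 1 or replicate 3 left out, 0 members were called and 0 had an unadjusted p under 0.05. Stromal markers summed to 1772 to 5244 CPM in epithelial libraries at 5 mM and 2542 to 7376 at 50 mM, and their part in these values was not tested.

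In stromal cells the smallest p values were those of CENPF, PRC1 and CENPE. CENPF was at 75.7, 95.2 and 179 CPM at 5 mM and 59.4, 84.8 and 145 at 50 mM, lower in each pair while the groups overlapped, at -0.28 ± 0.099 (SE, unadjusted p = 0.0442, adjusted p = 0.696) by edgeR's quasi-likelihood test. PRC1 was at 41.6, 52.2 and 65.3 CPM at 5 mM and 28.2, 52.5 and 51.8 at 50 mM, and at -0.30 ± 0.15 (SE, unadjusted p = 0.104, adjusted p = 0.696). CENPE was at 30.9, 59.5 and 63.7 CPM at 5 mM and 23.2, 60.04 and 49.1 at 50 mM, and at -0.26 ± 0.13 (SE, unadjusted p = 0.106, adjusted p = 0.696). Both were nearly level in the pair of replicate 2. MKI67 was at -0.19 ± 0.13 (SE, adjusted p = 0.698). The summed epithelial markers of the stromal libraries were 106 to 752 CPM at 5 mM and 1145 to 5556 at 50 mM, without overlap, and their part in the stromal values was not tested. Without replicate 3 CENPF was at -0.28, MKI67 at -0.097 and the stromal median over the members was -0.048, with 0 called and 1 at an unadjusted p under 0.05.

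**Figure D5:**
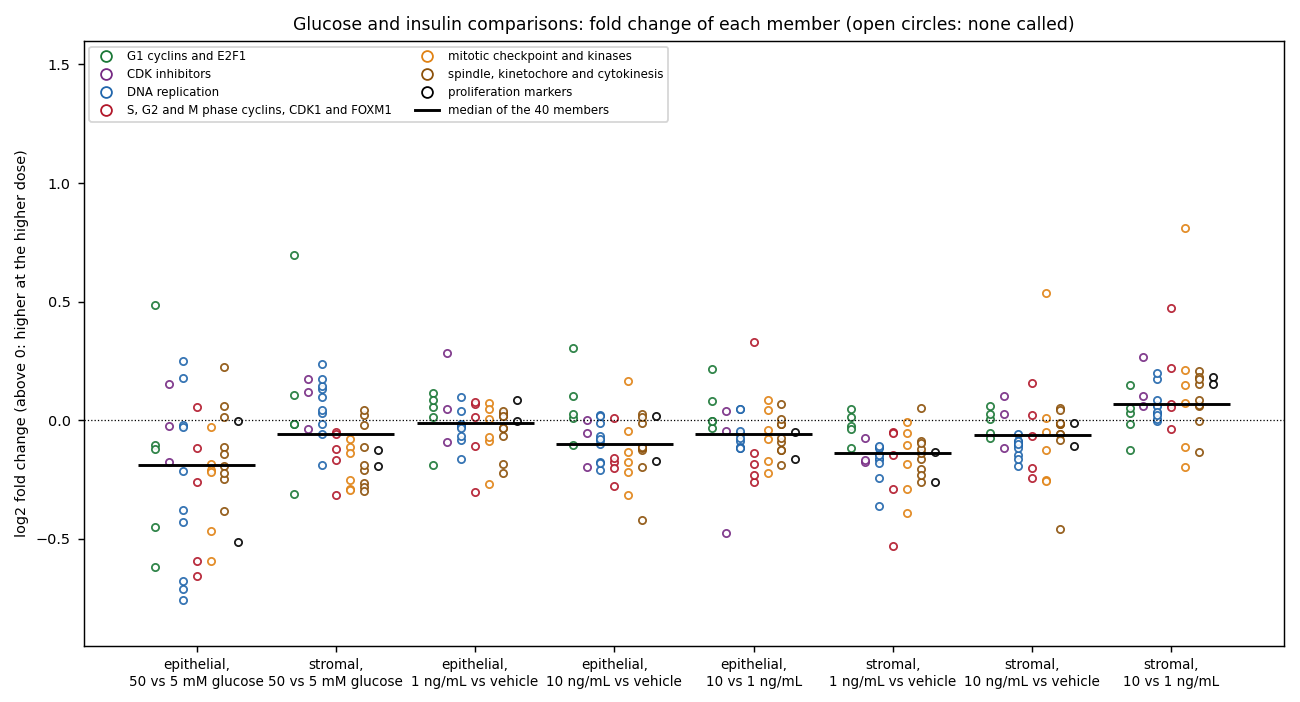
Log2 fold change of each member (vertical, above 0 higher at the higher dose) in the 8 comparisons of glucose or insulin doses, 3 libraries a dose, coloured by role, with the median of the 40 members as a bar. No member was called in any of them, the epithelial glucose values spread from -0.76 to 0.48, and CDC20 is the highest point in the stromal comparisons of 10 ng/mL insulin.

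Insulin was compared in each cell type between 1 or 10 ng/mL and vehicle and between 10 and 1 ng/mL. The comparisons of a cell type share libraries, so their values stand side by side and are not independent. In epithelial cells no member was called. With 1 ng/mL, 0 members were called beside 0.0% of all protein-coding genes, and 1 had an unadjusted p under 0.05 beside 2.87%. With 10 ng/mL, 0 were called beside 0.113%, and 5 had an unadjusted p under 0.05 beside 6.78%. Between 10 and 1 ng/mL, 0 were called beside 0.0%, and 0 had an unadjusted p under 0.05 beside 4.29%. DESeq2 called 0 members in the 3 comparisons. The median log2 fold changes were -0.0094, -0.10 and -0.056, with 21, 28 and 30 of 40 members below 0. The median standard error of a member was 0.11 in each of the 3, and no fitted value lay beyond -0.48 or 0.33. Between 10 and 1 ng/mL, 20, 20 and 34 members were lower in replicates 1, 2 and 3, beside 6235, 6579 and 7153 of 12396 protein-coding genes.

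At 10 ng/mL the epithelial members with the smallest p were CENPF, TOP2A and NUSAP1, and all had values below 0. CENPF was at 47.8, 37.8 and 87.3 CPM with vehicle and 50.1, 34.6 and 64.2 with 10 ng/mL, lower in the pairs of replicates 2 and 3 and higher in that of replicate 1, at -0.20 ± 0.071 (SE, unadjusted p = 0.00964, adjusted p = 0.539) by edgeR's quasi-likelihood test. Without replicate 1 it was called, at -0.33 ± 0.074 (SE, adjusted p = 0.00559), beside 0.254% of all protein-coding genes. TOP2A, given above, was at -0.17 ± 0.077 (SE, unadjusted p = 0.0328, adjusted p = 0.685). NUSAP1, a microtubule binding protein of the spindle, was at 2.99, 3.63 and 7.79 and 2.79, 3.04 and 4.91, lower in 3 of 3 pairs, at -0.42 ± 0.20 (SE, unadjusted p = 0.0392, adjusted p = 0.694). The other 2 with an unadjusted p under 0.05 were MCM3 at -0.21 and RRM2 at -0.18. MKI67 was at 0.018 ± 0.073 (SE, adjusted p = 0.993). For 1 ng/mL the smallest p were those of PRC1, at -0.18 ± 0.083 (SE, unadjusted p = 0.0377, adjusted p = 1) from 21.01, 21.5 and 33.4 CPM with vehicle to 18.4, 18.1 and 30.8 with 1 ng/mL, of MCM3, from 14.9, 18.9 and 25.9 to 12.99, 14.7 and 26.1 and -0.16 ± 0.096 (SE, unadjusted p = 0.102, adjusted p = 1), and of AURKB, from 3.96, 4.27 and 7.63 to 3.84, 3.03 and 6.32 and -0.27 ± 0.18 (SE, unadjusted p = 0.145, adjusted p = 1). PRC1 was lower in 3 of 3 pairs and its groups overlapped. Between 10 and 1 ng/mL they were RRM1 at -0.12 ± 0.055 (SE, unadjusted p = 0.0527, adjusted p = 0.983), TOP2A at -0.16 ± 0.081 (SE, unadjusted p = 0.0629, adjusted p = 0.983) and CDK1 at -0.23 ± 0.12 (SE, unadjusted p = 0.0707, adjusted p = 0.983), each given above by library. MKI67 was at 0.086 ± 0.066 (SE, adjusted p = 1) with 1 ng/mL and -0.051 ± 0.066 (SE, adjusted p = 0.983) between 10 and 1 ng/mL. The 31 members that were lower with 10 ng/mL than with vehicle in replicate 3 compare with 27 in replicate 1 and 18 in replicate 2, and without replicate 3 the median was -0.013. Of all 12373 protein-coding genes tested, 6655, 5893 and 6587 were lower in replicates 1, 2 and 3.

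Stromal cells had no member called with insulin either. At 1 ng/mL, 0 members were called beside 0.0% of all protein-coding genes, and 4 had an unadjusted p under 0.05 beside 5.03%. With 10 ng/mL, 0 were called beside 0.0%, and 1 had an unadjusted p under 0.05 beside 2.73%. Between 10 and 1 ng/mL, 0 were called beside 0.0244%, and 1 had an unadjusted p under 0.05 beside 3.68%. DESeq2 again called 0 members. With 1 ng/mL, 37 of 40 values were below 0, beside 51.8% of all protein-coding genes, at a median of -0.14. This direction rested on replicate 1, in which 38 members were lower than with vehicle, against 28 in replicate 2 and 13 in replicate 3, and without replicate 1 the median was 0.043. Of all 12228 protein-coding genes tested, 6125, 7717 and 5470 were lower in replicates 1, 2 and 3. With 10 ng/mL the median was -0.063, and between 10 and 1 ng/mL it was 0.067, or -0.21 without replicate 1.

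MCM3, a helicase subunit, had the smallest p of the stromal members with 1 ng/mL. It was at 22.7, 16.5 and 22.9 CPM with vehicle and 15.9, 11.9 and 20.9 with 1 ng/mL, lower in 3 of 3 pairs with overlapping groups, at -0.36 ± 0.10 (SE, unadjusted p = 0.00328, adjusted p = 0.753) by edgeR's quasi-likelihood test. CDKN1A was at 266, 305 and 216 and 208, 251 and 229.8, lower in replicates 1 and 2 and higher in replicate 3, at -0.18 ± 0.069 (SE, unadjusted p = 0.024, adjusted p = 0.917). MKI67 followed the same pattern, at -0.26 ± 0.11 (SE, unadjusted p = 0.0405, adjusted p = 0.917). Without replicate 3 both were called, beside 0.755% of all protein-coding genes, CDKN1A at -0.29 ± 0.068 (SE, adjusted p = 0.0174) and MKI67 at -0.48 ± 0.10 (SE, adjusted p = 0.00761), so that a gene that holds division back and a marker of division had values of the same sign. PRC1 was at -0.23 ± 0.11 (SE, unadjusted p = 0.0477, adjusted p = 0.917).

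CDC20, the activator of the anaphase-promoting complex, had the smallest p of the stromal members in both comparisons of 10 ng/mL. Its levels were 4.49, 1.52 and 3.09 CPM with vehicle, 2.44, 1.46 and 3.52 with 1 ng/mL and 6.52, 2.26 and 4.62 with 10 ng/mL. In each replicate the level with 10 ng/mL was above those with vehicle and with 1 ng/mL, and the groups overlapped. The log2 fold changes were 0.54 ± 0.20 (SE, unadjusted p = 0.0254, adjusted p = 0.999) against vehicle and 0.81 ± 0.25 (SE, unadjusted p = 0.00826, adjusted p = 1) against 1 ng/mL by edgeR's quasi-likelihood test. PLK1, at 10.4, 8.08 and 7.79 CPM with vehicle, 10.1, 7.66 and 7.44 with 1 ng/mL and 9.27, 5.33 and 7.95 with 10 ng/mL, was at -0.26 ± 0.15 (SE, unadjusted p = 0.122, adjusted p = 0.999) against vehicle and -0.20 ± 0.16 (SE, unadjusted p = 0.236, adjusted p = 1) against 1 ng/mL. BUB1B, at 12.1, 5.04 and 6.51 with vehicle and 11.01, 3.43 and 6.19 with 10 ng/mL, was at -0.25 ± 0.15 (SE, unadjusted p = 0.13, adjusted p = 0.999). FOXM1, the factor that drives G2 and M phase genes, went from 2.35, 1.03 and 2.37 with 1 ng/mL to 5.65, 1.63 and 1.37 with 10 ng/mL, higher in replicates 1 and 2 and lower in replicate 3, at 0.47 ± 0.36 (SE, unadjusted p = 0.214, adjusted p = 1). MKI67 was at -0.11 ± 0.12 (SE, adjusted p = 0.999) against vehicle and 0.18 ± 0.17 (SE, adjusted p = 1) against 1 ng/mL. RRM2 was called between 10 and 1 ng/mL when replicate 1 was left out, at -0.64 ± 0.10 (SE, adjusted p = 0.00315), beside 0.357% of all protein-coding genes, from 29.9, 15.8 and 41.4 CPM with 1 ng/mL to 60.4, 11.9 and 24.5 with 10 ng/mL in the 3 replicates. Summed epithelial markers were 22.8 to 418.5 CPM with vehicle, 22.8 to 25.8 with 1 ng/mL and 23.7 to 335 with 10 ng/mL in these stromal libraries, and their part in the stromal values was not tested.

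Whether a dose acted differently in the 2 cell types was tested as the difference of the 2 log2 fold changes (above 0, higher in epithelial cells), again by edgeR's quasi-likelihood test. For glucose, 0 members were called beside 0.0% of all protein-coding genes, and 1 had an unadjusted p under 0.05 beside 7.65%. This was MCM5, at -0.86 ± 0.31 (SE, unadjusted p = 0.0247, adjusted p = 0.64). For 1 ng/mL insulin, 0 were called beside 0.659%, and 3 had an unadjusted p under 0.05 beside 6.69%. They were CDKN1A at 0.23 ± 0.093 (SE, unadjusted p = 0.0241, adjusted p = 0.577), MKI67 at 0.36 ± 0.15 (SE, unadjusted p = 0.029, adjusted p = 0.628) and MCM5 at 0.35 ± 0.16 (SE, unadjusted p = 0.0421, adjusted p = 0.698), and without replicate 3 MKI67 was called, at 0.68 ± 0.14 (SE, adjusted p = 0.023), beside 1.14% of all protein-coding genes. For 10 ng/mL against vehicle, 0 were called beside 0.0%, and 0 had an unadjusted p under 0.05 beside 4.05%. For 10 against 1 ng/mL, 0 were called beside 0.728%, and 1 had an unadjusted p under 0.05 beside 6.6%, which was CDC20 at -0.74 ± 0.31 (SE, unadjusted p = 0.032, adjusted p = 0.631). DESeq2 called 0 members in the 4 tests. MKI67 was at -0.32 ± 0.26 (SE, adjusted p = 0.781) for glucose, 0.075 ± 0.19 (SE, adjusted p = 1) for 10 ng/mL and -0.25 ± 0.21 (SE, adjusted p = 0.922) for 10 against 1 ng/mL.

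The rest of the cell cycle was read from 3 wider lists with 146 matched genes that are not members, and from 18 p53 target genes. Between the cell types with vehicle, 2 of 41 tested genes of DNA replication and S phase were called higher in epithelial cells and 6 lower, 6 and 4 of 69 genes of G2 and mitosis, and 3 and 10 of 32 G1/S regulators, beside 28.2% and 27.8% of all protein-coding genes. The counts with 1 ng/mL insulin were 5 and 7 of 41, 10 and 7 of 69, and 4 and 8 of 33, beside 29.9% and 29.5%, and with 10 ng/mL they were 3 and 3 of 41, 5 and 4 of 69, and 4 and 9 of 32, beside 27.3% and 27.6%. At 5 mM glucose 5 and 0 of 41, 3 and 0 of 71, and 4 and 1 of 33 were called, beside 10.8% and 10.7%, and at 50 mM 0 and 0, 1 and 0, and 2 and 1, beside 6.57% and 11.0%. The smallest p belonged to POLD1 and MCM10 among the replication genes, at 1.08 ± 0.14 (SE, adjusted p = 0.00162) and -1.02 ± 0.13 (SE, adjusted p = 0.00169) with 1 ng/mL, and to PSRC1 and NCAPH among the mitotic genes, at 2.82 ± 0.20 (SE, adjusted p = 0.000231) and 2.08 ± 0.18 (SE, adjusted p = 0.00048) with 1 ng/mL. Among the G1/S regulators they were LIN52 and LIN54, subunits of the DREAM complex, at -1.70 ± 0.15 (SE, adjusted p = 0.00164) and -1.04 ± 0.098 (SE, adjusted p = 0.0019) with vehicle. All are from edgeR's quasi-likelihood test. Of the 18 p53 targets, read against the same shares, 8 were called higher and 1 lower with vehicle, 7 and 1 with 1 ng/mL, 7 and 3 with 10 ng/mL, and 1 and 0 at 5 mM and 1 and 1 at 50 mM glucose. BAX, which promotes cell death, and XPC, a DNA repair gene, had the smallest p, BAX at 1.15 ± 0.10 (SE, adjusted p = 0.000528) with 1 ng/mL and XPC at 1.54 ± 0.11 (SE, adjusted p = 0.00146) with 10 ng/mL.

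In the 8 comparisons of doses 0 genes of these 4 lists were called, and those with an unadjusted p under 0.05 numbered 0 to 4 of the replication genes, 0 to 7 of the mitotic genes, 0 to 2 of the G1/S regulators and 0 to 2 of the p53 targets in a comparison. Over all protein-coding genes the share with an unadjusted p under 0.05 ran from 1.54% to 6.78% in these comparisons. The ranges are not matched to it by comparison and are not read as a result about the lists. CHEK2, a kinase of the DNA damage checkpoint, had the smallest p of all, with 10 ng/mL insulin in epithelial cells, at -0.51 ± 0.13 (SE, unadjusted p = 0.000458, adjusted p = 0.174), followed in its list by CDKN1C at 0.55 ± 0.21 (SE, unadjusted p = 0.0194, adjusted p = 0.917) with 1 ng/mL in stromal cells. PRIM2 was at -0.35 ± 0.13 (SE, unadjusted p = 0.00987, adjusted p = 0.549) with 10 ng/mL in epithelial cells and UHRF1 at -0.88 ± 0.27 (SE, unadjusted p = 0.0198, adjusted p = 0.804) with 50 mM glucose in epithelial cells. CDC25C was at -0.43 ± 0.15 (SE, unadjusted p = 0.0122, adjusted p = 0.895) with 1 ng/mL in stromal cells and CKS2 at -0.39 ± 0.15 (SE, unadjusted p = 0.0134, adjusted p = 0.598) with 10 ng/mL in epithelial cells. SESN2 was at 0.17 ± 0.056 (SE, unadjusted p = 0.00532, adjusted p = 0.458) with 10 ng/mL and MDM2 at 0.097 ± 0.041 (SE, unadjusted p = 0.0321, adjusted p = 0.983) between 10 and 1 ng/mL in epithelial cells. In epithelial cells at 50 mM glucose the median of the mitotic list was -0.24 with 45 of 71 genes below 0, that of the replication list -0.077 with 23 of 41, and that of the p53 targets -0.016 with 9 of 18.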

How the data were processed

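Libraries were stranded and sequenced as 75-base single-end reads. Per the methods and the labels, the authors trimmed reads (Cutadapt), filtered them on quality, checked them (FastQC), used Rsubread for alignment against Ensembl release 96 of the bovine genome, keeping reads with a unique position, sorted the alignments (SAMtools) and counted them per gene with featureCounts. The deposited values used here are these raw counts. The strand setting of the counting is not given in the sources used here. Tables of the authors' own DESeq2 comparisons hold fold changes and p-values, and only their gene names and biotypes were used.

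Counts were tested with edgeR 4.0.16 in R 4.3.3, with TMM normalisation, filterByExpr on the group, a replicate block as in the paired design of the methods (replicate within cell type for differences between cell types), the quasi-likelihood test and Benjamini-Hochberg adjustment over all genes tested. Background shares are over protein-coding genes tested. The alternatives were RLE normalisation, DESeq2 1.42.0, every gene with a count, no block, all libraries of an experiment in 1 fit and each replicate left out. The fits were tested on simulated data. Deviations of same-numbered libraries correlated at 0.216 to 0.847 between doses, over 0.1 in all 24 pairs, and at 0.029 to 0.51 between cell types, over 0.1 in 12 of 15.

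The rule for the members uses no measured value, but the members and lists were chosen with earlier results of these data known. Values in every library are given for 13 genes and for members named by rule: in each comparison of cell types the called members with the largest fold changes of each role, and in each comparison of doses the 3 with the smallest p. Of other lists the 2 genes with the smallest p over the comparisons of each kind are named. Members called only without a replicate, PLK1 between the cell types, and CCND2 and MCM6 between the experiments were chosen after their values were seen. Gene sequences were not analysed here.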

Additional observations from a re-analysis of the deposited data

How the results depend on the processing

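Fitted with all libraries of the experiment, 18 members were called with vehicle, 20 with 1 ng/mL, 17 with 10 ng/mL and 12 at 5 mM glucose, in place of 8, 12, 7 and 4, where the share of all protein-coding genes called was 77.2%, 78.0%, 77.0% and 41.5%. That fit has a replicate block within each cell type, shared over the doses, and does not pair the cell types by replicate number. The doses of a replicate thus stand as repeats, and the spread between replicates is not in the error for the cell types. Without the replicate block the counts were 7 with 1 ng/mL and 0 at 50 mM glucose, in place of 12 and 2, and within 1.5 times the reported count elsewhere. With 1 replicate left out they ranged from 5 to 10 with vehicle, 8 to 13 with 1 ng/mL, 2 to 10 with 10 ng/mL, 0 to 10 at 5 mM and 0 to 5 at 50 mM glucose. For the fits of cell types without the block or a replicate, a share over all genes is given only at 5 mM without replicate 2. These ranges are thus not read as particular to the members. Among the dose comparisons the range was 0 to 8 for glucose in epithelial cells, 0 to 1 for 10 ng/mL insulin in epithelial cells, 0 to 2 for 1 ng/mL and 0 to 1 for 10 against 1 ng/mL in stromal cells, and 0 to 1 for the difference between cell types with 1 ng/mL. In the other dose comparisons no setting called a member. RLE normalisation, DESeq2 and the unfiltered fit kept every count within 1.5 times or at 0.

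Of 727 values of named members under the alternatives, 624 kept their direction and their side of the threshold, 59 lost a call, 27 gained one and 17 changed sign. None of the 17 was called in the reported fit of its comparison. With each replicate left out in turn, the values that changed sign had these ranges. Between the cell types, MKI67 with vehicle ran from -0.030 to 1.16. At 5 mM glucose CCND2 ran from -0.65 to 0.26, CCNE1 from -0.87 to 0.29 and TPX2 from -0.44 to 0.18. At 50 mM CCND2 ran from -0.13 to 0.040, MCM6 from -0.020 to 0.49, AURKB from -0.25 to 0.39 (and -0.018 without replicate 1) and TPX2 from -0.56 to 0.063. In epithelial cells MKI67 ran from -0.072 to 0.25 with 10 ng/mL insulin (and -0.055 without replicate 1) and from -0.098 to 0.058 between 10 and 1 ng/mL. In stromal cells it ran from -0.29 to 0.057 with 10 ng/mL and from -0.26 to 0.42 between 10 and 1 ng/mL, where FOXM1 ran from -0.17 to 1.01. Without the replicate block CCND2 at 5 mM glucose was at 0.075 and epithelial MKI67 with 10 ng/mL at -0.024. The cause was not tested. With 3 replicates a group, the median standard error of a member ran from 0.25 to 0.41 in the comparisons of cell types. In those of doses it ran from 0.11 to 0.28.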

Other observations

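Levels also differed between the experiments, and the treatment cannot be told apart from whatever else separated them. The glucose and insulin experiments both held cells at 5 mM glucose. Epithelial MKI67 was at 218, 153 and 296 CPM at 5 mM in the glucose experiment and 35.1, 31.5 and 101 with vehicle in the insulin experiment, and epithelial CCNB1 at 24.1, 6.05 and 23.6 and 5.17, 3.097 and 11.9. Stromal MKI67 was at 71.7, 118 and 154 and 56.5, 17.8 and 32.98, and stromal CCNB1 at 10.5, 15.5 and 27.4 and 8.65, 3.61 and 5.23. For MKI67 every library of the glucose experiment was above every library of the same cell type in these groups of the insulin experiment. Over the 40 members the mean at 5 mM glucose was above that with vehicle for 37 in epithelial and 31 in stromal cells. No share over all genes is given beside these counts, so they are not read as particular to the members. Among the 9 stromal members with a lower mean, CCND2 was at 40.5, 54.5 and 31.2 CPM at 5 mM and 74.6, 101 and 114 with vehicle, and MCM6 at 27.6, 41.02 and 28.4 and 48.5, 44.2 and 53.04. MCM7 was closer in epithelial cells, at 75.7, 116 and 84.8 and 61.9, 64.9 and 71.3. CDKN1A was at 313, 387 and 271 and 276, 289 and 284 in epithelial cells, with overlap. No test was run on this contrast, since no group is shared.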
